A study of Mus musculus with 768 samples.

Results

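The myelinating Schwann cells of the mouse sciatic nerve differ widely in their level of Pmp2, and the cells with much Pmp2 were compared here with the cells with little. The members were 221 wells of 768 in all, 108 on plate 1 and 113 on plate 2. A well was a member if it held at least 1500 genes with a read, was not a corner well, was not cycling (at least 5 reads in each of 3 or more of 10 cell cycle genes), and reached 10 CPM (counts scaled to the same total in each well or sum) of Ncmap and 30000 CPM of Pmp22. Of the 655 wells outside the corners that passed the gene minimum, 57 were cycling, 228 were Ncmap-negative and 149 had Ncmap but less Pmp22 (intermediate). Members were ranked by Pmp2 CPM within each plate and cut into 3 groups, Pmp2-low, Pmp2-middle and Pmp2-high, of 36, 36 and 36 wells on plate 1 and 37, 39 and 37 wells on plate 2. Reads were summed per plate and group, so each side of the comparison has n = 2 plates, and wells are not replicates.

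All cells came from sciatic nerves at postnatal day 5. The mice were on the C57bl/6J background and carried a P0cre transgene, which turns on the reporter eYFP in the Schwann cell lineage, and a dsRed reporter driven by a beta actin promoter in every cell. Single eYFP-positive cells were sorted into 384-well plates. Their RNA was sequenced by Smart-Seq2, which reads transcripts over their whole length. Each plate is 1 biological replicate per the labels and pooled 1 male and 1 female, per the methods of the study. Every group therefore shares genotype, age, nerve and gate with the others. The wells of a plate come from the same pool, and the labels do not say from which animal or sex each well came.

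Schwann cells that wrap a single large axon build compact myelin, a stack of fused membranes that is rich in cholesterol, galactolipids and long-chain fatty acids and is held together by a small set of very abundant proteins. Pmp2 (also known as P2 or Fabp8) is one of them. It belongs to the fatty acid binding proteins, small barrel-shaped carriers of a single lipid molecule, and it binds to the inner face of the myelin membrane. Unlike Pmp22, which crosses the membrane, it is a peripheral protein, and in nerve it is known for marking only a part of the myelin sheaths.

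The label of the cells was checked against myelin genes. In the 6 sums, Mbp, which seals the inner faces of the myelin membrane, lay between 50948 and 61804 CPM. Mag, an adhesion protein of the membrane next to the axon, lay between 1187 and 1773 CPM, and Drp2, a scaffold of the outer Schwann cell surface, between 160 and 210 CPM. Prx, another scaffold of that surface, lay between 2218 and 3068 CPM. These markers were thus present in every group of both plates. They were present in intermediate wells too, on plates 1 and 2, with 20000 and 20106 CPM of Mbp and 1078 and 1033 CPM of Mag. Drp2 had 16.4 and 6.30 CPM there and Prx 1461 and 1663 CPM. Egr2, a transcription factor of the myelin program, lay between 144 and 294 CPM in the 6 sums, and intermediate wells had 236 and 181 CPM. The Ncmap minimum removed no well, since each well with enough Pmp22 had at least 1110 CPM of Ncmap. At the Pmp22 minimum, the nearest wells below and above it had 29331 and 31333 CPM on plate 1 and 29896 and 30776 CPM on plate 2.

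The Pmp2 gene (ENSMUSG00000052468) lies on chromosome 3 from 10179851 to 10183929 on the minus strand (GRCm38, GENCODE vM21). Its level chose the groups, so the following values describe them and were not tested. On plate 1 the Pmp2-low group ran from 0 to 499 CPM with a median of 130, the Pmp2-middle group from 543 to 2703 with a median of 1347, and the Pmp2-high group from 2729 to 23512 with a median of 6261. On plate 2 the Pmp2-low group ran from 0 to 615 CPM with a median of 143, the Pmp2-middle group from 649 to 3022 with a median of 1535, and the Pmp2-high group from 3056 to 21244 with a median of 6371. Wells with no Pmp2 read at all numbered 13 on plate 1 and 11 on plate 2, all in the Pmp2-low group. The mean Pmp2 level of the Pmp2-high group was 45.3-fold that of the Pmp2-low group on plate 1 and 42.7-fold on plate 2. The levels ran on without a gap at the border of the Pmp2-middle and Pmp2-high group, where neighbouring wells had 2703 and 2729 CPM on plate 1 and 3022 and 3056 CPM on plate 2.

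Outside the myelinating wells Pmp2 was low. The median was 0 CPM in cycling and in Ncmap-negative wells of both plates. In intermediate wells it was 35.2 CPM on plate 1 and 244 CPM on plate 2, and single intermediate wells reached 6020 and 4090 CPM, within the range of the Pmp2-high group. The gene model Gm37389 (ENSMUSG00000103124, chromosome 3, 10179852 to 10197262) overlaps Pmp2 on the same strand. Its reads were 0.919 of those of Pmp2 in the myelinating wells of plate 1 and 0.916 on plate 2. Its counts cannot be told apart from those of Pmp2, and both genes were left out of the test.

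**Figure D1:**
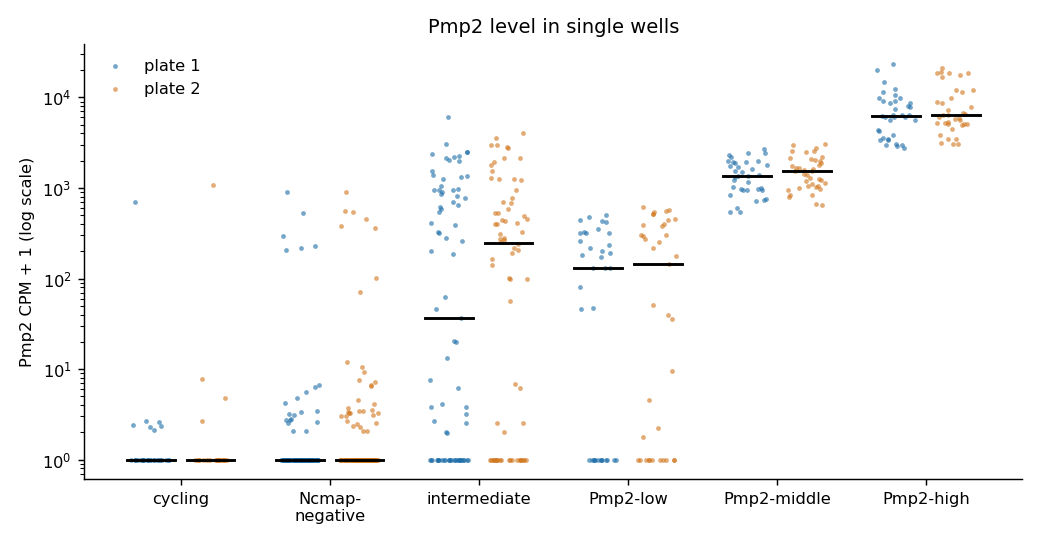
Pmp2 CPM plus 1 on a log axis in each of the 655 wells that passed the gene minimum outside the corners, by cell group (x axis) and plate (colour), with black lines at the medians. Levels in myelinating wells run from 0 to 23512 CPM on plate 1 and to 21244 CPM on plate 2, and the medians of the cycling and Ncmap-negative wells are 0 CPM.

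The number of genes detected per well moved with Pmp2. The Pmp2-low group had a median of 3489 genes on plate 1 and 3632 on plate 2, the Pmp2-middle group 3707 and 3953, and the Pmp2-high group 4394 and 4719. Over single wells the Spearman correlation of Pmp2 CPM with the number of genes was 0.549 on plate 1 (108 wells) and 0.660 on plate 2 (113 wells). Depth moved less. Median reads per well were 740242 and 683563 in the Pmp2-low group, 818162 and 749229 in the Pmp2-middle group and 883925 and 793549 in the Pmp2-high group, and the correlation of Pmp2 with reads was 0.139 and 0.138. After every well was thinned to 100000 reads, which left out 2 wells of plate 1 and none of plate 2, the medians were 3022 and 3239 genes in the Pmp2-low group and 3836 and 4138 in the Pmp2-high group. The difference in genes per well was thus present at equal depth.

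**Figure D2:**
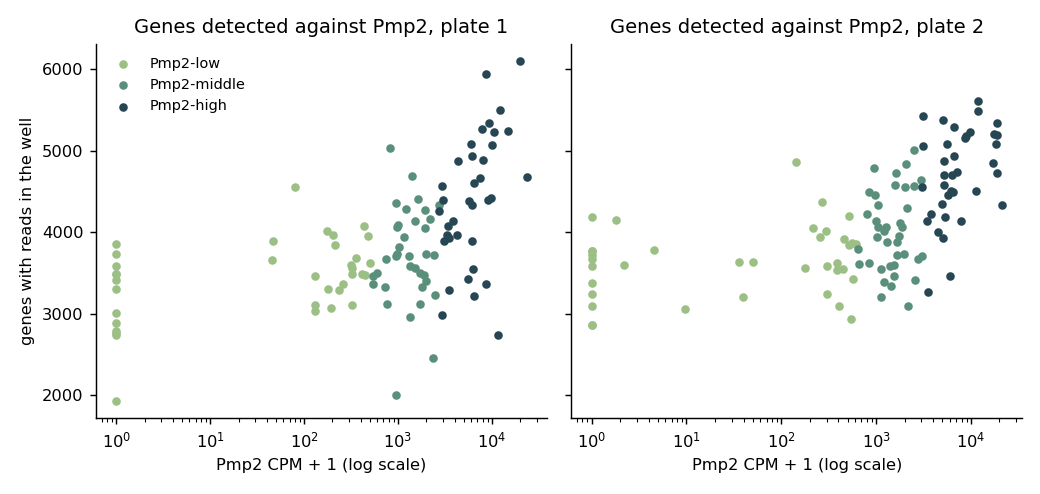
Number of genes with a read (y axis) against Pmp2 CPM plus 1 on a log axis (x axis) in each myelinating well, by plate (panels) and group (colour). Wells of the Pmp2-high group had a median of 4394 genes on plate 1 and 4719 on plate 2, against 3489 and 3632 in the Pmp2-low group.

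The other genes that chose the members moved little or the opposite way. The correlation of Pmp2 with Pmp22 over wells was 0.171 and 0.0817, and with Ncmap it was -0.356 and -0.399. The mitochondrial share of reads had medians of 2.70% and 2.55% in the Pmp2-low group and 3.04% and 2.83% in the Pmp2-high group. All correlations over wells are descriptions, since the wells of a plate share its animals and each CPM value shares the total of its well.

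Of 12339 genes tested with edgeR's quasi-likelihood test, 3 passed an adjusted p of 0.05 between the Pmp2-high and the Pmp2-low group, which is 0.0243% of the genes. Chst2 and H2-DMb1 rose with Pmp2 (0.0162% of the genes), and 1 gene was lower (0.0081%). An unadjusted p under 0.05 was reached by 969 genes (7.85%), of which 504 were higher in the Pmp2-high group (4.08%) and 465 were lower (3.77%). DESeq2 on the same sums called 400 of 12313 genes with an adjusted p (3.25%), 208 higher (1.69%) and 192 lower (1.56%), among them these 3. The edgeR fit had a common dispersion of 0.782 and 3 residual degrees of freedom. In an edgeR fit of only the genes of at least 20 CPM, 642 of 5606 had an unadjusted p under 0.05, in either direction. The shares of all genes set beside the gene lists below are over 12339 genes, those of few reads included.

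Chst2 (ENSMUSG00000033350, chromosome 9, 95399292 to 95406722) encodes a sulfotransferase of the Golgi that adds sulfate to N-acetylglucosamine in glycan chains. Its level was 28.7 and 27.6 CPM in the Pmp2-low group of plates 1 and 2, 101 and 117 CPM in the Pmp2-middle group and 369 and 348 CPM in the Pmp2-high group. Both Pmp2-high sums lay far above both Pmp2-low sums, and the Pmp2-middle sums lay between. The mean of the Pmp2-high sums was 359 ± 14.5 CPM and that of the Pmp2-low sums 28.1 ± 0.752 CPM (SD, n = 2), a 12.8-fold difference. The fitted log2 change was 3.66 (SE 0.242, edgeR adjusted p = 8.84e-04), and the log2 ratios within plates 1 and 2 were 3.66 and 3.63. The call held in 17 of 20 alternatives and ended with 2 groups by Pmp2 (edgeR adjusted p = 0.0779), with the outer of 4 groups (0.217) and within tertiles of genes per well (0.514).

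The change in Chst2 was seen in the number of wells with reads as well as in the sums. Reads of Chst2 were found in 7 of 36 and 5 of 37 wells of the Pmp2-low group, in 12 of 36 and 17 of 39 wells of the Pmp2-middle group, and in 28 of 36 and 31 of 37 wells of the Pmp2-high group. As shares these were 19.4% (95% exact interval 8.19 to 36.0) and 13.5% (4.54 to 28.8) in the Pmp2-low group, and 77.8% (60.8 to 89.9) and 83.8% (68.0 to 93.8) in the Pmp2-high group. At 100000 reads per well they were 7 of 35 and 4 of 37 wells in the Pmp2-low group and 71.4% and 81.1% of the Pmp2-high group. Of the reads of Chst2 in the Pmp2-low group, a single well held 50.9% on plate 1 and 76.7% on plate 2, against 11.9% and 13.6% for the top well of the Pmp2-high group. Intermediate wells had 17.8 and 9.81 CPM of Chst2 and Ncmap-negative wells 17 and 3.14 CPM.

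Of the same sulfotransferase family, Chst3 had 27.5 and 35.7 CPM in the Pmp2-low group and 36.6 and 35.1 CPM in the Pmp2-high group (log2 change 0.17, edgeR adjusted p = 0.985). Chst1, Chst4, Chst5 and Chst7 had no read in the 3 Pmp2 groups.

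H2-DMb1 (ENSMUSG00000079547, chromosome 17, 34153072 to 34160230) encodes a chain of H2-DM, which loads peptides onto class II antigen-presenting molecules. Its level was 41.8 and 51.5 CPM in the Pmp2-low group, 131 and 108 CPM in the Pmp2-middle group and 254 and 275 CPM in the Pmp2-high group. The Pmp2-high and Pmp2-low sums did not overlap. The log2 change was 2.49 (SE 0.259, edgeR adjusted p = 0.0154), with 2.59 on plate 1 and 2.40 on plate 2, and the fold between the means was 5.67. The call held in 15 of 20 alternatives and ended with only the 4 Pmp2-high and Pmp2-low sums (edgeR adjusted p = 0.0811), within Pmp22 tertiles (0.364), with 2 groups by Pmp2 (0.120), with the outer of 4 groups (0.138) and within tertiles of genes per well (0.499). Wells with reads of H2-DMb1 made up 8.33% (95% exact interval 1.75 to 22.5) and 21.6% (9.83 to 38.2) of the Pmp2-low group and 61.1% (43.5 to 76.9) and 59.5% (42.1 to 75.2) of the Pmp2-high group. At 100000 reads per well these shares were 8.57% and 21.6% against 60.0% and 56.8%. In the Pmp2-low group of plate 1, a single well held 72.9% of the reads.

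The partner chain of H2-DM showed a change of the same sign that did not pass. H2-DMa had 168 and 120 CPM in the Pmp2-low group, 106 and 199 CPM in the Pmp2-middle group and 600.5 and 443 CPM in the Pmp2-high group (log2 change 1.85, SE 0.318, edgeR adjusted p = 0.157). It shares exonic sequence with Brd2, whose level was 77.2 and 43.7 CPM in the Pmp2-low group and 23 and 57.6 CPM in the Pmp2-high group. The class II molecules that H2-DM serves were nearly absent. Cd74, the invariant chain, and H2-Aa had no read in the 3 Pmp2 groups, and H2-Ab1 lay between 1.92 and 22.8 CPM. In Ncmap-negative wells H2-DMb1 had 0.0185 and 0.0501 CPM. The immune markers Ptprc, Lyz2, C1qa and Tyrobp had no read in the 3 Pmp2 groups. Csf1r, another immune marker, had 0.135 and 1.05 CPM in the Pmp2-low group and 21.2 and 2.69 CPM in the Pmp2-high group. Cd68 had 7.10 and 0 CPM in the Pmp2-low group and 0.0904 and 0 CPM in the Pmp2-high group.

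For Chst2 and H2-DMb1, each higher in the Pmp2-high group, RefSeq gives the bases before the start of the gene, and both stretches are shown. They are the 250 bases before the start in GRCm38.p6, chr9:95407271-95407520 on the minus strand for Chst2 and chr17:34152941-34153190 on the plus strand for H2-DMb1, with capitals at matches to 5 motifs (a TATA box, a SOX-type and an EGR-type motif, a CCAAT box and a GC box, searched on both strands).
Chst2: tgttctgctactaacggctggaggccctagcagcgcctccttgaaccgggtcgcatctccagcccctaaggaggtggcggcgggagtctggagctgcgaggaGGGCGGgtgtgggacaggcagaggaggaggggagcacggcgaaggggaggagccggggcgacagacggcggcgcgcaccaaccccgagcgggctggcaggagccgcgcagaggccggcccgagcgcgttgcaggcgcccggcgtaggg
H2-DMb1: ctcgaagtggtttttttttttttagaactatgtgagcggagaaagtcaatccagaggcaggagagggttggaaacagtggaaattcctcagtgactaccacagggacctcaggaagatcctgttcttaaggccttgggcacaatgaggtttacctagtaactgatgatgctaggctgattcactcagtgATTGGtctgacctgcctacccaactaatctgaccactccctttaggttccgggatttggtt
These starts are those of RefSeq and differ from the gene ends of GENCODE vM21 given above: the stretch of H2-DMb1 runs past 34153072 into the gene as placed there, with its motif match, and that of Chst2 ends upstream of 95406722 without reaching it. The sequences shared no matched motif. Chst2 held 1 GC box (GGGCGG), as did 32.7% of 32851 promoters of this length, and its bases were 72.8% G or C against a median of 52.4%. H2-DMb1 held 1 CCAAT box in reverse, a motif (CCAAT) in 33.9% of promoters, and its bases were 46.4% G or C. Neither held the TATA box as TATAAA, which is in 12.4% of promoters. The SOX-type motif, ACAAAG, is in 16.5% of promoters and the EGR-type motif, GCGTGGG, in 4.30%, and neither gene held them. A match is a string of letters and no evidence of binding.

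**Figure D3:**
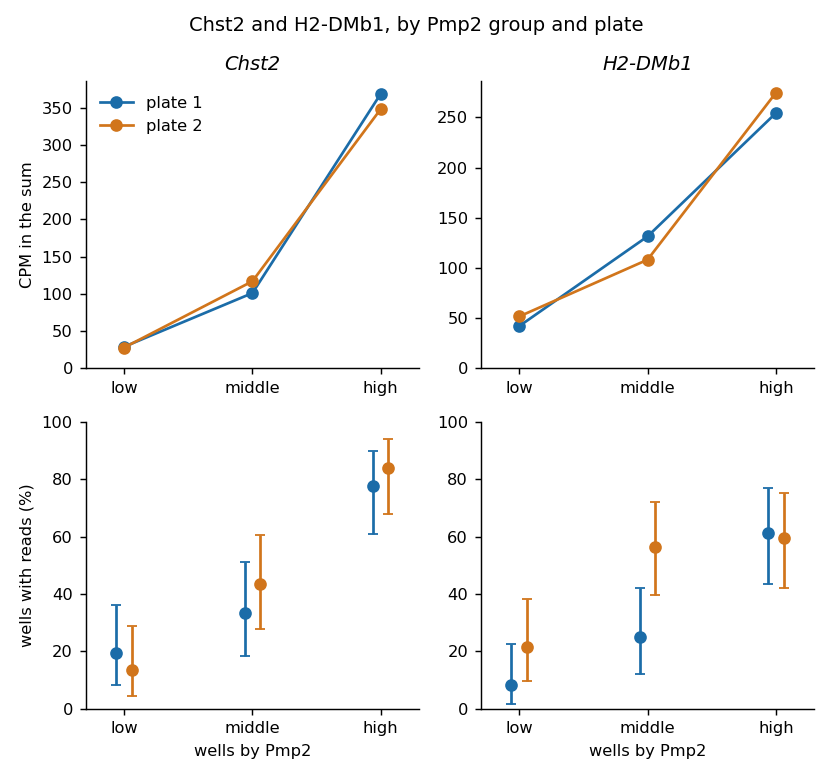
CPM in each sum (upper row, 1 point per plate and group) and percent of wells with reads, with 95% exact binomial intervals (lower row), for Chst2 and H2-DMb1. The mean of Chst2 went from 28.1 to 359 CPM, and H2-DMb1 went from 41.8 and 51.5 CPM to 254 and 275 CPM, with the CPM of the Pmp2-middle group between on both plates.

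The calls were set beside the number of genes per well. When the groups were drawn within tertiles of genes per well, the sides differed less in Pmp2 (13-fold on plate 1 and 11.1-fold on plate 2), and no gene passed edgeR's threshold (690 at an unadjusted p under 0.05). The log2 change of Chst2 was then 2.05 (adjusted p = 0.514) and that of H2-DMb1 1.63 (adjusted p = 0.499). Both kept their sign at a smaller size. Within tertiles of reads per well, 2 genes passed, Chst2 and H2-DMb1, with changes of 3.59 and 2.46. With all wells at 100000 reads they were 3.34 and 2.98, both past the threshold. How far the number of genes per well and Pmp2 each carry the differences was not tested.

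By the naming rule, 20 further genes with the lowest p in each direction are given as values; none of them passed. Among those higher in the Pmp2-high group, S100b, a calcium-binding protein of Schwann cells, had 290 and 196 CPM in the Pmp2-low group, 370 and 297 CPM in the Pmp2-middle group and 633 and 923 CPM in the Pmp2-high group (log2 change 1.66, edgeR adjusted p = 0.139). Vdac2, a channel of the outer mitochondrial membrane, had 437 and 445 CPM in the Pmp2-low group and 808 and 814 CPM in the Pmp2-high group, with a log2 change of 0.87. Ccnd1, the cyclin D1 gene, had 29.7 and 44.8 CPM against 151 and 116 CPM (log2 change 1.83), and its levels outside the myelinating wells were 563 and 543 CPM in intermediate, 856 and 892 CPM in Ncmap-negative and 663 and 547 CPM in cycling wells. Anxa3, a membrane-binding annexin, had 0.404 and 0 CPM in the Pmp2-low group, 32.9 and 19.4 CPM in the Pmp2-middle group and 59.4 and 60.1 CPM in the Pmp2-high group, from reads in 25% and 40.5% of the Pmp2-high wells. The gene 1810055G02Rik had 12.9 and 14.5 CPM against 76.2 and 71.8 CPM.

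Among the higher genes are 2 pairs whose members share exons and are not independent. Cntf, a survival factor for neurons made by myelinating Schwann cells, had 92.1 and 174 CPM in the Pmp2-low group and 485 and 518 CPM in the Pmp2-high group (log2 change 1.91, edgeR adjusted p = 0.167). Zfp91, in which Cntf lies, had 107 and 193 CPM against 537 and 544 CPM. Nme1, a nucleoside diphosphate kinase, had 56.4 and 80.0 CPM against 203 and 212 CPM, and the readthrough model Gm20390, which joins Nme1 with Nme2, had 181 and 186 CPM against 349 and 388 CPM. In each pair the reads cannot be assigned to 1 of the genes. Other genes from the naming rule share exonic sequence with a gene not given here, so their reads carry the same limit. Vdac2 does so with Comtd1, Anxa3 with Gm42603, Ccnd1 with LTO1 and Cnp with Dnajc7.

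Of the genes with lower values in the Pmp2-high group, Cnp, an enzyme of uncompacted myelin, had 6294 and 6026 CPM in the Pmp2-low group, 6085 and 4782 CPM in the Pmp2-middle group and 3861 and 3260 CPM in the Pmp2-high group (log2 change -0.80, edgeR adjusted p = 0.183). Cnp was read in every well of every group. Fxyd6, a small membrane protein of the FXYD family, had 3108 and 2712 CPM in the Pmp2-low group, 2227 and 2304 CPM in the Pmp2-middle group and 1767 and 1668 CPM in the Pmp2-high group (log2 change -0.77, SE 0.123, edgeR adjusted p = 0.139). Cadm1, an adhesion molecule, had 69.6 and 74.9 CPM in the Pmp2-low group and 8.68 and 6.34 CPM in the Pmp2-high group. In the Pmp2-high group of plate 1, a single well held 95.8% of the reads of Cadm1.

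Of the further genes with lower values, Klf13, a transcription factor, had 1066 and 701 CPM in the Pmp2-low group and 420 and 356 CPM in the Pmp2-high group (log2 change -1.20). Nrep had 1676 and 1288 CPM against 686 and 815 CPM, Ypel3 368 and 393 CPM against 166 and 130 CPM, and Grb14, an adaptor of insulin receptor signalling, 226 and 227 CPM against 93.7 and 89.8 CPM. Add1, which caps actin filaments, had 221 and 246 CPM against 101 and 107 CPM. Dusp26, a phosphatase, had 30.7 and 70.1 CPM in the Pmp2-low group and 0.151 and 0 CPM in the Pmp2-high group, and Shroom1 had 41.2 and 40.9 CPM against 0.934 and 0.712 CPM. Wells with reads of Dusp26 made up 22.2% and 24.3% of the Pmp2-low group, so its level rested on a minority of wells. Reads of Shroom1 were found in 13 of 36 and 8 of 37 wells of the Pmp2-low group, and a single well held 70.2% of them on plate 2.

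Of the 22 genes given here from the naming rule, 21 had the Pmp2-middle group between the other two groups on both plates, the exception being H2-DMa. Among all 5583 genes of at least 20 CPM this held for 14.7%. Those genes were not chosen for their difference, so that share is no baseline for the named genes, and no weight is put on the 21. The 21 also count both members of the pairs that share exons. The named genes were chosen on the Pmp2-high and Pmp2-low sums, so nothing is read from the fact that those sums did not overlap for any of them (20.8% of the 5583 genes were apart and higher, 21.7% apart and lower). Over the same 5583 genes the log2 ratios of plate 1 and plate 2 had a Spearman correlation of 0.209 and a Pearson correlation of 0.215, and 58.2% had the same sign. Across genes, which are not independent replicates, the plates thus resembled each other weakly.

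**Figure D4:**
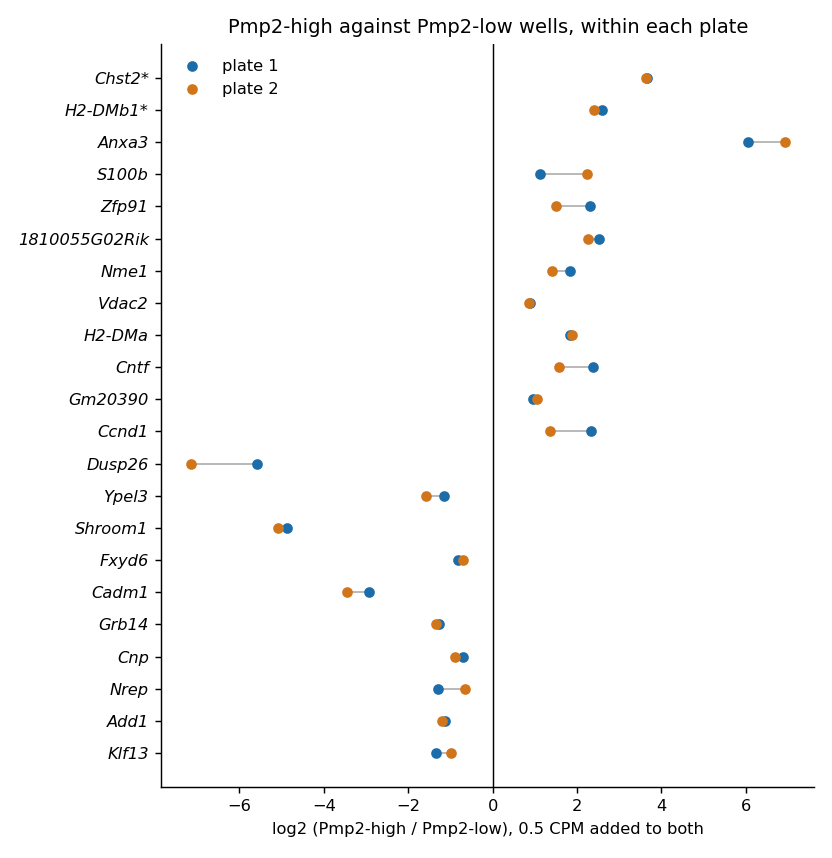
Log2 ratio of the Pmp2-high to the Pmp2-low group within plate 1 and plate 2 (colour) for the 22 named genes, with 0.5 CPM added to both sides, and with an asterisk at Chst2 and H2-DMb1, which were past the threshold. Chst2 had ratios of 3.66 and 3.63, H2-DMb1 of 2.59 and 2.40, and the most extreme values belong to Anxa3 and Dusp26, which were near 0 CPM in 1 of the groups.

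The steps were also compared one at a time. Between the Pmp2-high and the Pmp2-middle group no gene passed edgeR's threshold (574 or 4.65% at an unadjusted p under 0.05, 133 or 1.08% called by DESeq2). Between the Pmp2-middle and the Pmp2-low group none passed either (721 or 5.84% at an unadjusted p under 0.05, 297 or 2.41% called by DESeq2). The log2 change of Chst2 was 1.73 from the Pmp2-middle to the Pmp2-high group and 1.93 from the Pmp2-low to the Pmp2-middle group, with edgeR adjusted p = 0.144 and 0.131.

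Correlations over single wells use no group borders, but they rest on the same wells as the sums and are no separate check of them. Among 3044 genes of at least 50 CPM, ranked by the weaker of their values on the 2 plates, Chst2 followed Pmp2 most closely, with a Spearman correlation over wells of 0.536 on plate 1 and 0.604 on plate 2. It was followed by Gm20390 (0.488 and 0.448), Nme1 (0.413 and 0.422), Dhh (0.408 and 0.465) and Fabp5 (0.401 and 0.446). On a single plate others lay above Gm20390, among them H2-DMb1 (0.515 and 0.360) on plate 1 and S100b (0.231 and 0.558) on plate 2. The middle 90% of these genes lay between -0.175 and 0.268 on plate 1 and between -0.176 and 0.291 on plate 2. Among the lowest values were those of Klf13 (-0.495 and -0.447), Nrep (-0.484 and -0.414) and Ypel3 (-0.421 and -0.413). None of them came near the correlation of Pmp2 with Gm37389 (0.9996 and 0.9998), which counts the same reads.

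Dhh, desert hedgehog, is the Schwann cell signal that organises the perineurium. It had 194 and 123 CPM in the Pmp2-low group, 266 and 285 CPM in the Pmp2-middle group and 377 and 348 CPM in the Pmp2-high group (log2 change 1.18, SE 0.245, edgeR adjusted p = 0.274).

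Fabp5 is a relative of Pmp2 in the same gene cluster, at chromosome 3 from 10012548 to 10016607. It had 145 and 165 CPM in the Pmp2-low group, 176 and 254 CPM in the Pmp2-middle group and 317 and 379 CPM in the Pmp2-high group (log2 change 1.15, SE 0.229, edgeR adjusted p = 0.230). Of 20 genes of fatty acid binding and uptake, 11 were tested and none passed; 3 had an unadjusted p under 0.05 and were higher, namely Fabp5, Acsl1 and Crabp2, where 4.08% of all genes were higher at that limit. Crabp2 had no read in the Pmp2-low sums and 15.01 and 5.31 CPM in the Pmp2-high sums. It entered the test only through its reads in the other groups and could only come out higher, so no weight is put on its count. Dbi, the acyl-CoA binding protein, had 1244 and 1303 CPM against 1198 and 1406 CPM (log2 change 0.02). Slc27a1, a fatty acid transporter, had 75 and 123 CPM against 86.9 and 60.9 CPM. Of the 9 neighbours of Pmp2 on the chromosome, 5 were tested, and of these only Fabp5 had an unadjusted p under 0.05, beside 4.08% of all genes higher. Impa1 (log2 change -0.60) and Snx16 (log2 change -0.33) had values of the opposite sign.

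Of the compact myelin genes, Pllp, Cd9, Mbp and Mal are given as genes that did not choose the members. None passed, and Pllp and Cd9 were lower at an unadjusted p under 0.05, as were 3.77% of all genes. Pllp, plasmolipin, had 3724 and 3617 CPM in the Pmp2-low group and 2658 and 2635 CPM in the Pmp2-high group. Cd9, a tetraspanin, had 13089 and 13920 CPM against 9296 and 10816 CPM. The remaining genes differed by less. Mbp had 50948 and 55996 CPM in the Pmp2-low group and 61804 and 55425 CPM in the Pmp2-high group (log2 change 0.12, SE 0.0763, edgeR adjusted p = 0.751). Mal, a lipid raft protein, had 5154 and 5318 CPM against 5213 and 5337 CPM. Pmp22, which chose the members, had 58537 and 68218 CPM against 72509 and 69825 CPM.

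Genes of non-compact myelin and junctions had a median log2 change of -0.16, against 0.00 over all genes tested and 0.02 for the list within tertiles of genes per well, with none of 12 at an unadjusted p under 0.05. Prx had 2595 and 3068 CPM in the Pmp2-low group and 2218 and 2658 CPM in the Pmp2-high group. Gjc3, a connexin, had 1552 and 1528 CPM against 1350 and 1211 CPM, and Utrn, utrophin, 1404 and 1418 CPM against 1458 and 1296 CPM. Of 11 genes of nodes, paranodes and ion channels, 9 were tested and 1, the potassium channel Kcnk1, had an unadjusted p under 0.05. It was lower, as were 3.77% of all genes at that limit, with 353 and 336 CPM against 183 and 233 CPM. Gldn, gliomedin of the node, had 218 and 131 CPM against 164 and 196 CPM, and Kcna1 176 and 173.5 CPM against 157 and 143 CPM.

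Both lists of genes that make the lipids of myelin had medians above 0. Of 23 genes of cholesterol synthesis, none passed, and 7 had an unadjusted p under 0.05, all higher in the Pmp2-high group. Of all genes 4.08% were higher at that limit, but this share includes genes of few reads, and all 23 had at least 20 CPM. In the edgeR fit of only such genes, 642 of 5606 reached the limit in either direction. The median log2 change of the list was 0.29, and 0.28 and 0.18 within plates 1 and 2. Fdps, which makes farnesyl diphosphate, had 2349 and 2508 CPM in the Pmp2-low group, 3017 and 3068 CPM in the Pmp2-middle group and 2844 and 3129 CPM in the Pmp2-high group (log2 change 0.29, SE 0.110). Mvk, mevalonate kinase, had 185 and 147 CPM in the Pmp2-low group, 273 and 272 CPM in the Pmp2-middle group and 330.5 and 259.5 CPM in the Pmp2-high group (log2 change 0.81). Msmo1 had 958 and 938 CPM against 1018 and 936 CPM, and Fdft1, squalene synthase, 1012 and 746 CPM against 818 and 882 CPM. From the Pmp2-low to the Pmp2-middle group the log2 changes of Fdps and Mvk were 0.30 and 0.69, and neither passed. From the Pmp2-middle to the Pmp2-high group they were -0.02 and 0.13.

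Of 25 genes of fatty acid and sphingolipid synthesis, 6 had an unadjusted p under 0.05 and were higher (Scd2, Elovl7, Ugt8a, Fasn, Elovl6 and Sgms1) and 1 was lower (Fa2h), beside 4.08% and 3.77% of all genes. None passed, and the median was 0.18, with 0.40 on plate 1 and 0.07 on plate 2. Scd2, a desaturase, had 828 and 894 CPM in the Pmp2-low group and 1287 and 1335 CPM in the Pmp2-high group (log2 change 0.59, edgeR adjusted p = 0.356). Ugt8a, which makes the galactolipids of myelin, had 303 and 496 CPM against 705 and 645 CPM (log2 change 0.75). Fa2h, which hydroxylates their fatty acids, had 713 and 800.0 CPM against 591 and 549 CPM (log2 change -0.42). Within tertiles of genes per well the signs of Fasn and Fa2h turned, to -0.0719 and 0.0691. Elovl1 and Cers2, which make and use very long chains, had log2 changes of 0.07 and 0.16.

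**Figure D5:**
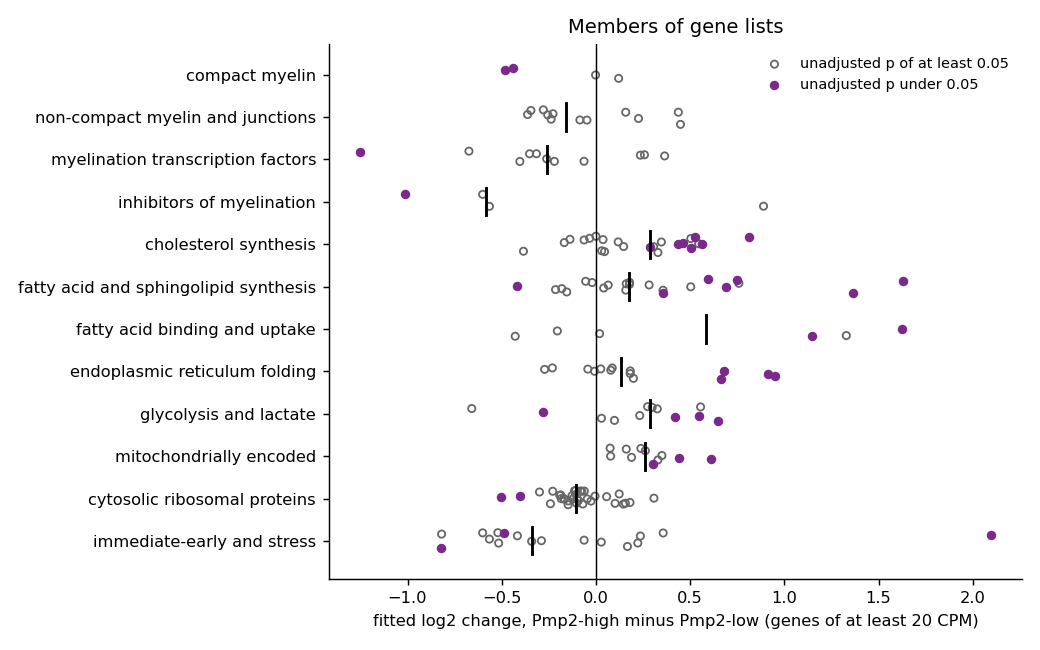
Fitted log2 change between the Pmp2-high and the Pmp2-low group (x axis) of the reported genes of at least 20 CPM in 12 lists, filled where the unadjusted p was under 0.05, with black lines at the medians over these genes, except for compact myelin, where the genes that chose the members are left out and no median is drawn. Of the compact myelin genes the filled points, Pllp and Cd9, lie below 0, and of the cholesterol genes they lie above 0; no list member passed the adjusted threshold.

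No regulator of myelination passed. Egr2, the transcription factor that turns on the myelin program, had 294 and 160 CPM in the Pmp2-low group, 229 and 183 CPM in the Pmp2-middle group and 238 and 144 CPM in the Pmp2-high group (log2 change -0.26, SE 0.342), and its plates differed by more than its groups. Sox10 had 202 and 204 CPM against 148 and 173 CPM (log2 change -0.35), and Zeb2 153 and 101 CPM against 106 and 88.2 CPM. Of 13 transcription factors tested, only Wwtr1 (also TAZ), a partner of TEAD factors, had an unadjusted p under 0.05. It was lower, as were 3.77% of all genes at that limit, with 107 and 98.1 CPM against 44.6 and 42.4 CPM. Of 7 inhibitors of myelination tested, only Id2 reached that limit and was lower, beside the same 3.77%, with 432 and 213 CPM against 150 and 174 CPM. Jun had 200 and 67.8 CPM against 128 and 50.6 CPM and Egr1 156 and 108 CPM against 125 and 54.2 CPM, and for both the plates differed by more than the groups.

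Markers of earlier stages were few. Of 10 immature Schwann cell genes 5 were tested, and Cdh19, a cadherin, had 9.42 and 20.5 CPM in the Pmp2-low group and 44.2 and 57.2 CPM in the Pmp2-high group (log2 change 1.75, edgeR adjusted p = 0.532). The other tested members stayed under 15 CPM in every sum. Tnc and Ncam1 had log2 changes of 1.14 and 0.74, and Sox2 and Cdh2 of -0.85 and -0.19. Ncam1 moved in opposite directions on the plates (log2 ratios of 3.30 and -1.29). Ngfr and L1cam of this list were not tested, with at most 1.75 and 0.944 CPM in any sum. Of the pro-myelinating genes, Pou3f1 had 135 and 81.2 CPM against 69.6 and 67.5 CPM, Cdkn1c 100.3 and 71.5 CPM against 86.1 and 43.0 CPM and Pou3f2 3.77 and 16.6 CPM against 34.6 and 21.5 CPM. None reached an unadjusted p under 0.05.

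Receptors for axonal and matrix signals had changes in both directions. Erbb3, the neuregulin receptor, had 187 and 121 CPM in the Pmp2-low group and 75.8 and 36.9 CPM in the Pmp2-high group (log2 change -1.46, edgeR adjusted p = 0.401). Its partner Erbb2 had 59.9 and 63.5 CPM, 97.5 and 88.6 CPM in the Pmp2-middle group, and 31.3 and 65.7 CPM in the Pmp2-high group. Lgi4, a secreted ligand made by Schwann cells, had 34.1 and 52.8 CPM against 100.5 and 101 CPM (log2 change 1.20, edgeR adjusted p = 0.482). Among 16 genes of the basal lamina and integrins only Itgb4, the laminin receptor chain of mature Schwann cells, had an unadjusted p under 0.05. It was lower, as were 3.77% of all genes at that limit, with 84.5 and 53.6 CPM against 18.7 and 18.9 CPM. Lama2, Lamb1 and Itga6 had log2 changes of -0.09, -0.07 and 0.20.

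Of the neurotrophic and growth factors, 6 of 15 were tested. Besides Cntf, Pdgfa had 65.9 and 93.7 CPM in the Pmp2-low group, 101 and 136 CPM in the Pmp2-middle group and 125 and 183 CPM in the Pmp2-high group (log2 change 0.94, edgeR adjusted p = 0.534). Fgf1 had 215 and 135 CPM against 106 and 173 CPM, with the plates moving in opposite directions.

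Lists on cell metabolism and stress were read as measures of cell state. Of 18 genes of protein folding in the endoplasmic reticulum, 4 had an unadjusted p under 0.05 and were higher (Hspa5, Calr, Creld2 and Xbp1), beside 4.08% of all genes, and the median was 0.18. Canx, Pdia3 and P4hb had log2 changes of 0.09, 0.18 and 0.03. Of 19 genes of glycolysis and lactate, 3 were higher at that limit (Aldoa, Gapdh and Pkm) and 1 lower (Ldhb), beside 4.08% and 3.77% of all genes, and Eno1 had a change of 0.03. The median of the 12 genes of this list with at least 20 CPM was 0.29, and -0.03 within tertiles of genes per well. Of 13 mitochondrially encoded genes, 3 were higher (mt-Nd1, mt-Nd5 and mt-Nd6), beside 4.08% of all genes. Their summed level was 28836 and 24754 CPM in the Pmp2-low group and 32337 and 30279 CPM in the Pmp2-high group, while mt-Co1 and mt-Cytb had changes of 0.08 and 0.24.

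Of 34 cytosolic ribosomal protein genes 2 were lower at that limit (Rplp0 and Rps4x), beside 3.77% of all genes, the median was -0.10, and Rpl4 and Rpl13 had changes of -0.07 and -0.10. Of 20 immediate-early and stress genes, Fos and Junb were lower and Dusp1 was higher at that limit, beside 3.77% and 4.08% of all genes. Fos, which rises during tissue dissociation, had 4454 and 3670 CPM in the Pmp2-low group, 3078 and 3908 CPM in the Pmp2-middle group and 3040 and 2806 CPM in the Pmp2-high group (log2 change -0.49). Klf6 and Hsp90aa1 had changes of 0.03 and 0.36. Of the MHC and interferon list, B2m had 946.5 and 1082 CPM against 763 and 762 CPM, and H2-D1 lay between 10.01 and 74.4 CPM.

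Markers of other cell types were summed over each list. The 3 collagen genes of the fibroblast-like list, Col1a1, Col1a2 and Col3a1, are also made by Schwann cells. The summed list had 889 and 1004 CPM in the Pmp2-low group, 880 and 1031 CPM in the Pmp2-middle group and 937 and 946 CPM in the Pmp2-high group, and Dcn and Lum, which define fibroblasts, had no read in the Pmp2-high group. Within that sum Col1a1 (201 and 156 CPM against 93.4 and 128 CPM) and Col3a1 (148 and 249 CPM against 106 and 94.7 CPM) were lower at an unadjusted p under 0.05 and Col1a2 was not (540 and 599 CPM against 737 and 723 CPM). The endothelial list summed to between 71.9 and 170 CPM, nearly all of it Egfl7 and Kdr, with Pecam1 and Cdh5 at 0 in the 3 Pmp2 groups. The pericyte list summed to between 37.8 and 103 CPM, nearly all of it Pdgfrb and Tagln, and Pdgfrb was lower at an unadjusted p under 0.05 (31.1 and 70.0 CPM against 24.1 and 18.6 CPM). The immune list (Cd68 and Csf1r) summed to between 1.05 and 21.3 CPM. The neuron list (Snap25, Nefm and Nefh among others) summed to between 2.89 and 19.2 CPM. The skeletal muscle list summed to between 0.0336 and 2.92 CPM, and the cell cycle list (Mki67, Ccna2 and Cenpf among others) to between 10.3 and 23 CPM. The cell cycle genes are the 10 that were used to leave out cycling wells, so their low sum was set by the rule. At the same limit Csf1r (0.135 and 1.05 CPM against 21.2 and 2.69 CPM) and Tubb3 (0 and 0.0389 CPM against 0.844 and 3.11 CPM) were higher. With at least 5 reads per marker, no member held 3 markers of the pericyte or neuron list. In the endothelial, immune and skeletal muscle lists too few markers had reads for a member to hold 3. Markers of the fibroblast-like list reached 3 in 12 of 36 and 15 of 37 Pmp2-low wells and 14 of 36 and 19 of 39 Pmp2-middle wells. They did so in 19 of 36 and 14 of 37 Pmp2-high wells, where only the 3 collagen genes of that list had reads.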

How the data were processed

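The RNA of sorted single Schwann cells was read in 2 plates of 384 wells. The authors aligned Smart-Seq2 reads with STAR and assigned them to genes with featureCounts, and deposited these raw counts as a table of genes by wells. The submitters' processing notes name STAR 2.6.1c and GRCm38.p5, whereas the methods of the paper name another STAR version and a human build. Gene identifiers are of mouse, and 25587 of 25700 were matched to GENCODE vM21 (GRCm38), which is not the annotation used for counting. Reads that overlap several genes were counted for each. The protocol has no molecular identifiers and does not mark strand, and overlapping genes cannot be told apart. Intervals (95%, Clopper-Pearson) are for the share of wells with reads. They treat the wells of a plate as independent draws and do not cover the spread between animals or plates.

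Plate 1 held 226050990 assigned reads (median of 520281 per well) and plate 2 held 203322077 (median of 486849). A well with 6280 reads stood in the Pmp2-middle group of plate 1. Member wells were summed per plate and group, giving 6 sums with between 25710665 and 35064790 reads. Pmp2 and Gm37389, with 0.636% of the reads of member wells, were removed first. The sums were fitted with edgeR 4.0.16 in R 4.3.3 (TMM, filterByExpr, quasi-likelihood test, group as the only term), with Benjamini-Hochberg adjustment over 12339 genes and a threshold of 0.05. Each SE is the log2 change divided by the root of its F, CPM values are plain CPM of a sum without the 2 genes, and plate ratios had 0.5 CPM added. The script was tested on simulated data. Doublets were neither called nor removed.

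Named genes were the 12 of largest log2 change in each direction past the threshold with at least 20 CPM and the same sign on both plates, filled to 12 by lowest p and then given as values only, the 3 members of highest CPM of each list, and 5 genes at each end of the well correlations. Further list members with an unadjusted p under 0.05 and the relatives of Chst2 and H2-DMb1 were named after their values were seen, as were the promoter motifs chosen. The members and lists were chosen with earlier results of these data known. Same-numbered sums come from the same pooled animals, so the plate number pairs them. Their deviations from the group means correlated with r of 0.0371, 0.0907 and 0.168 over 1913 genes of at least 100 CPM. Alternatives were a replicate block by plate, DESeq2 1.42.0, and other splits, filters and depths. Promoter sequences are those of RefSeq (GRCm38.p6). No entry was used for Pmp2. Some genes, among them the 1 that passed with a lower level, are not reported here.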

Additional observations from a re-analysis of the deposited data

Results flagged for a closer look

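Pmp2 was also read in wells outside the comparison, those with fewer than 1500 genes and the corner wells. On plate 1, 21 of 59 such wells held Pmp2 reads, 19112 in all of 6858404 reads (2787 CPM), and the highest well had 6101 of them. On plate 2, 9 of 54 such wells held 343 reads of 579149 (592 CPM). These wells were left out of every sum above, and no test was made on them.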

How the results depend on the processing

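Of 12339 genes, 3 passed between the Pmp2-high and the Pmp2-low group. The 3 genes were all called again under DESeq2 (400 genes called), DESeq2 size factors, no filter on low counts (129), genes of at least 20 CPM only (21, chosen after seeing the data), equal reads per well (22), a minimum of 2500 genes, a Pmp22 minimum of 50000 CPM, without plate columns 8 and 16, and without wells under 100000 reads (added after seeing the data). With the plate as a replicate block, which follows the pairing of the sums, 3 genes passed, the same ones, and the block changed no other count past the adjusted threshold. At an unadjusted p under 0.05 it gave 881, 491 and 601 genes for the 3 comparisons, against 969, 574 and 721 without it. Fewer passed with only the 4 Pmp2-high and Pmp2-low sums (1, Chst2), within Pmp22 tertiles (1, Chst2), within tertiles of reads per well (2, Chst2 and H2-DMb1), with a split into 2 groups by Pmp2 (0; 814 at an unadjusted p under 0.05), with the outer of 4 groups (0; 1305) and within tertiles of genes per well (0; 690). Leaving out 1 sum gave between 6 and 63 genes, namely 6 and 9 without the Pmp2-high sum of plate 1 or 2 and 41 and 63 without the Pmp2-low sum of plate 1 or 2, where the lone sum is assumed to vary like the others. The 3 genes passed in each of these.

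Between the Pmp2-high and the Pmp2-middle group (0), DESeq2 called 133, no filter 25, genes of at least 20 CPM 3, and leaving out 1 sum 0 to 10. Between the Pmp2-middle and the Pmp2-low group (0), DESeq2 called 297, no filter 29, genes of at least 20 CPM 1, equal reads 1, a minimum of 2500 genes 2, no wells under 100000 reads 2, and leaving out 1 sum 0 to 22. Of the list members (0), DESeq2 called 22, no filter 12, genes of at least 20 CPM 3, equal reads 3, and leaving out 1 sum 0 to 7. The log2 difference in mean Pmp2 was 5.46 for 3 groups, 3.73 for 2 groups and 6.66 for the outer of 4 groups. Over 74 genes and 20 alternatives, the sign turned in 2 cases, Fa2h (0.0691) and Fasn (-0.0719) within tertiles of genes per well. The causes were not tested. The data hold 2 plates, and genes with reads in a minority of wells give sums that rest on few cells.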
